A study of Mus musculus with 7 samples.

Results

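Fast excitation and inhibition between neurons run through the receptor subunits for glutamate, GABA and glycine, and their transcripts were followed here in contused spinal cord. The members are the protein-coding genes named as AMPA, kainate, delta, NMDA and metabotropic glutamate receptor subunits, as GABA-A and GABA-B receptor subunits, or as glycine receptor subunits. Of the 21965 genes counted, 51 carried such a name and 47 of these had a mean of at least 10 counts over the 7 libraries. All 47 passed the filter on low counts, as did 15743 genes in all. They were 4 AMPA, 5 kainate, 2 delta, 7 NMDA, 7 metabotropic glutamate, 15 GABA-A, 2 GABA-B and 5 glycine receptor subunits. The 4 genes left out were Gabra6, Gabrr1, Gabrr3 and Grm6. Gabra6 had no count in any library, which allows up to 3 counts or 0.0680 to 0.0779 CPM (counts scaled to a common library total) per library. Gabrr1 had a mean count of 3.43, Gabrr3 of 1.43 and Grm6 of 0.857. Just inside the limit lay Glra4 with 13, Gabrd with 17.9 and Gabrr2 with 20.9 counts.

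RNASeq was performed on spinal cord at day 3 after injury (dpi 3), one library per mouse, to compare mice labelled as lacking the circadian transcription factor BMAL1 with WT mice. All 7 mice had received a moderate contusion at thoracic level T9 (50 kdyn force, 400 to 600 μm displacement), and RNA came from the 5 mm segment around the epicenter, so no uninjured tissue is among the groups. The 3 mice labelled Bmal1-/- (2 females and 1 male) carried the germ-line B6.129-Arntltm1Bra/J allele on C57BL/6, an allele present in every cell type, and the 4 controls (2 females and 2 males) were C57BL/6 WT. Mice were 8 to 10 weeks old, tissue was taken at zeitgeber time 3 to 5 h, and only 1 of the WT mice was a littermate, the others having been purchased. Library totals ran from 38529644 to 44096737 counts. In the text, a level is CPM after TMM scaling of the libraries. Levels of different genes are compared as CPM per kb of exon, except where CPM undivided by length is named. The exon length is that of all annotated exons of a gene merged, so levels and shares per kb depend on the annotated length.

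The labels and the tissue were checked first. Arntl, which encodes BMAL1, had 24.1, 24.2 and 22.5 CPM in libraries labelled Bmal1-/- and 14.7, 15.3, 11.9 and 13.4 CPM in the WT libraries. The log2 fold change was 0.77 (SE 0.10, edgeR adjusted p = 0.0155), a count that goes against the knockout label, and edgeR no longer called it when Bmal1-/- replicate 1, 2 or 3 or WT replicate 4 was left out. A count per gene does not tell intact from altered RNA of the targeted gene. Of the target genes of BMAL1, Nr1d1 and Dbp differed the way the labels say. Nr1d1 had 5.31, 5.41 and 7.28 CPM in libraries labelled Bmal1-/- and 36.4, 36.8, 29.2 and 34.4 CPM in WT (log2 fold change -2.51, edgeR adjusted p = 0.000456). Dbp had 8.72, 7.80 and 8.83 CPM against 27.5, 29.4, 25.3 and 39.3 CPM (-1.85, edgeR adjusted p = 0.00328). Nr1d2 was also lower (log2 fold change -2.68). Other target genes were higher without overlap, namely Cry1 (1.58), Cry2 (0.58), Per1 (0.27) and Per2 (0.54). Of these higher genes, edgeR called Cry1 alone (adjusted p = 0.000456). Every direction given here is between libraries as labelled. WT replicate 3 stood apart: the summed level of 18 neuron markers was 4586 CPM there, 7470 to 9603 CPM in the other WT libraries and 9770 to 11741 CPM in those labelled Bmal1-/-. WT replicates 1 and 2 stood apart in another way. Markers of primary sensory neurons, whose cell bodies lie in dorsal root ganglia outside the cord, summed to 1092 and 650 CPM in them, against 129 and 96.5 CPM in WT replicates 3 and 4 and 146 to 155 CPM in libraries labelled Bmal1-/-. Scn10a, a sodium channel of nociceptors, had 5925, 2770, 127 and 37 counts in WT replicates 1 to 4 and 0, 0 and 1 count in libraries labelled Bmal1-/-. Results are therefore also given without WT replicate 3 and without WT replicates 1 and 2 where they differ.

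AMPA, kainate and NMDA receptors are glutamate-gated cation channels of 4 subunits. AMPA receptors carry most of the fast excitatory current, while NMDA receptors need a GluN1 subunit, encoded by Grin1, and take their kinetics and calcium signalling from the partner GluN2 subunit. Metabotropic glutamate receptors and GABA-B receptors signal through G proteins. GABA-A and glycine receptors are chloride channels of 5 subunits, and in the spinal cord glycine is a main inhibitory transmitter beside GABA. Astrocytes and oligodendrocyte precursors also carry some of these receptors, so that a transcript in whole tissue need not come from neurons.

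No subunit passed the test between genotypes. By edgeR, 0 of 47 had an adjusted p under 0.05, where 1.57% of all tested genes were called (0.654% with higher and 0.915% with lower values under the Bmal1-/- label). At an unadjusted p under 0.05 there were 6 of 47, 5 with higher and 1 with lower values, against 20.9% of all tested genes (8.64% with higher values). DESeq2 called Grin2c and Grik3 higher (2 of 47, background 3.80%) and Gabra4 lower (1 of 47, background 5.81%), 3 in all (background 9.61%), and limma-voom 0. Without WT replicate 3, edgeR called the same 3 (background 1.86% higher, 2.80% lower and 4.66% in all), and without WT replicates 1 and 2 it called 0 (background 0.260%), with 17 of 47 at an unadjusted p under 0.05 (background 28.3%).

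The fold changes nonetheless lay mostly on one side. The log2 fold change, libraries labelled Bmal1-/- over WT, was above 0 in 45 of 47 subunits, against 48.9% of all tested genes. Gabra4 and Grik1 were the other two. The median was 0.41, against -0.01 over all tested genes, and it was 0.24 without WT replicate 3 (42 of 47 above 0) and 0.63 without WT replicates 1 and 2 (46 of 47 above 0). By class the median was 0.36 for AMPA, 0.26 for kainate, 0.47 for delta, 0.54 for NMDA, 0.37 for metabotropic glutamate, 0.41 for GABA-A, 0.32 for GABA-B and 0.54 for glycine receptor subunits. Without WT replicate 3 the class medians were 0.19, 0.17, 0.30, 0.31, 0.12, 0.26, 0.10 and 0.35 in that order. Without WT replicates 1 and 2 they were 0.53, 0.31, 0.63, 0.86, 0.78, 0.75, 0.71 and 0.87. All members share their libraries, so these medians are not separate observations.

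**Figure D1:**
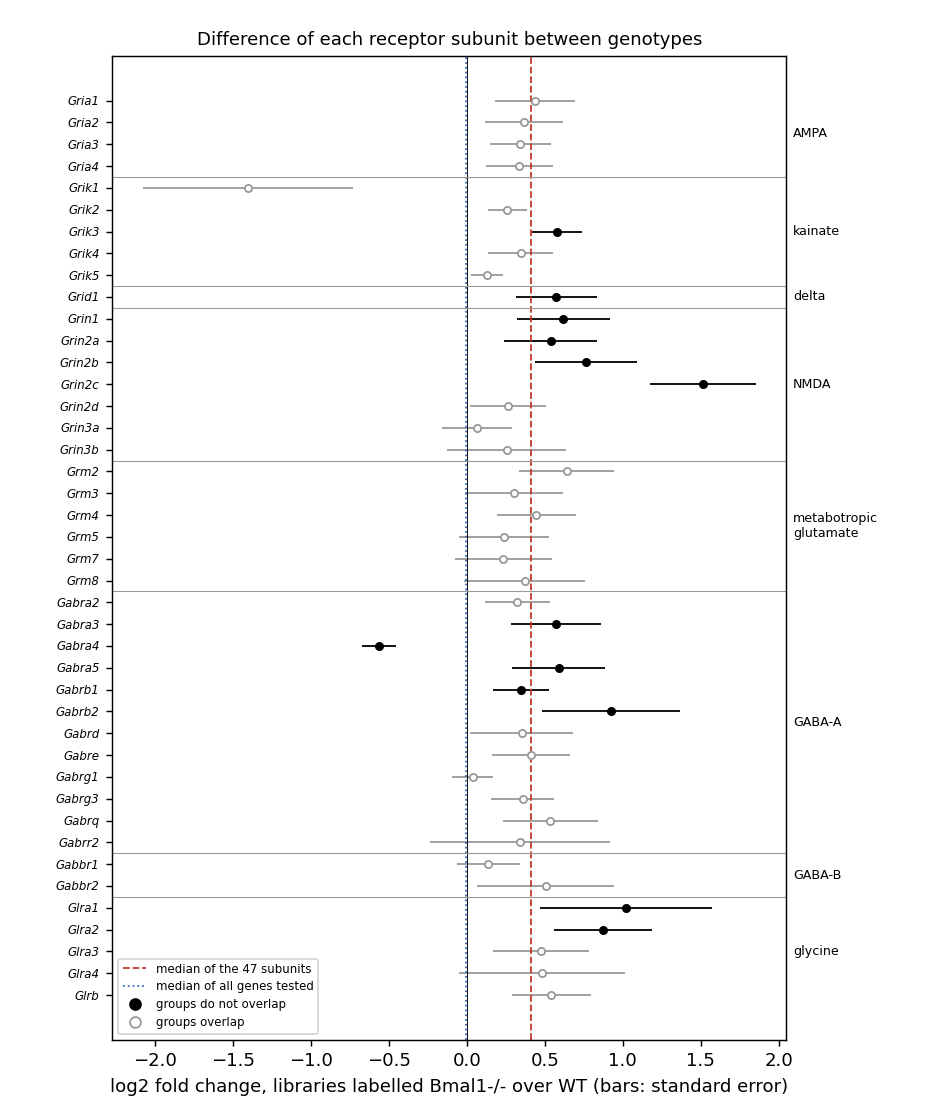
Log2 fold change (x axis, libraries labelled Bmal1-/- over WT, bars show the standard error) of 42 of the 47 subunits, grouped by receptor class. Filled points mark the 13 subunits shown whose libraries do not overlap between genotypes. The dashed line is the median of all 47 subunits, 0.41, and the dotted line the median of all tested genes, -0.01; only Grik1 and Gabra4 lie left of 0.

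The level in single libraries shows what these differences rest on. WT replicate 3 was the lowest of the 7 libraries in 44 of 47 subunits, against 35.9% of all tested genes. Bmal1-/- replicate 3 was the highest in 44 of 47, for which the share over all tested genes was not counted. Summed over the 47 subunits, the level was 2255, 2183 and 2817 CPM in libraries labelled Bmal1-/- and 2092, 2192, 1121 and 2080 CPM in the WT libraries. Of the 4 WT libraries, 3 thus came close to the lower 2 labelled Bmal1-/-, and WT replicate 2 lay above Bmal1-/- replicate 2. The groups did not overlap in 14 of 47 subunits, 13 above and 1 below WT, where 26.9% of all tested genes did not overlap (13.4% above and 13.5% below).

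**Figure D2:**
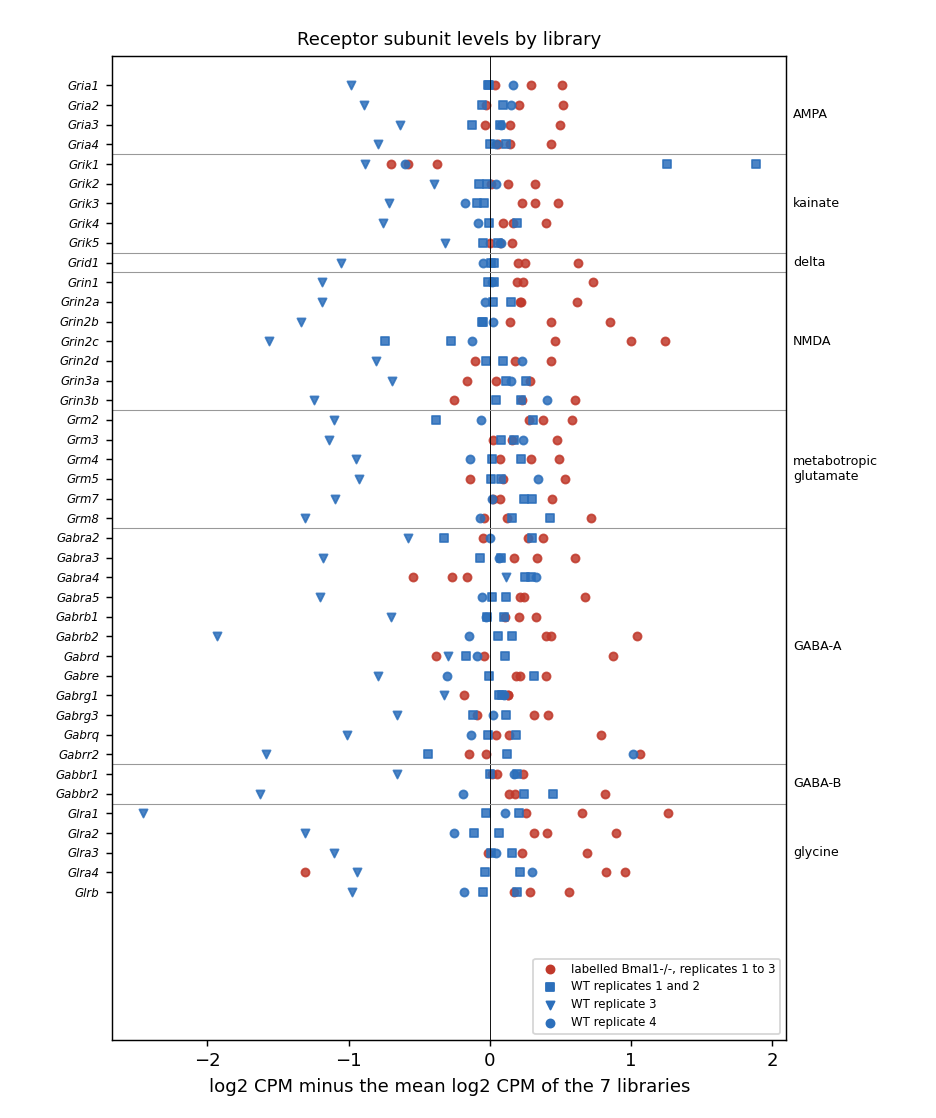
Log2 CPM of 42 of the 47 subunits in each library minus the mean of each over the 7 libraries (x axis), by receptor class. Red points are the libraries labelled Bmal1-/-, blue squares WT replicates 1 and 2, blue triangles WT replicate 3 and blue circles WT replicate 4. WT replicate 3 is lowest in all but Gabra4, Gabrd and Glra4, and WT replicates 1 and 2 stand far to the right in Grik1.

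Neuron markers lay on the same side as the subunits. All 18 had a log2 fold change above 0, with a median of 0.43. Of the 18, 4 reached an unadjusted p under 0.05 by edgeR (20.9% of all tested genes), and neither edgeR nor DESeq2 called any. In 8 of 18, all libraries labelled Bmal1-/- lay above all WT libraries (13.4% of all tested genes). The median of the 18 was 0.25 without WT replicate 3 (16 of 18 above 0) and 0.80 without WT replicates 1 and 2 (13 of 18 at an unadjusted p under 0.05, background 28.3%). Snap25, a protein of synaptic vesicle fusion, had 1240, 1354 and 1689 CPM in libraries labelled Bmal1-/- and 996, 1223, 456 and 966 CPM in WT. Per 1000 CPM of summed neuron markers, the subunits together stood at 223, 223 and 240 CPM in libraries labelled Bmal1-/- and at 229, 228, 245 and 278 CPM in WT, and these ranges overlapped. In bulk tissue, fewer neurons and less receptor RNA per neuron cannot be told apart. Among the other cells, the 14 astrocyte markers summed to 21612, 21182 and 19159 CPM in libraries labelled Bmal1-/- and to 14783, 17923, 12640 and 18199 CPM in WT. Gfap alone gave 12657, 12249 and 10021 CPM of these sums in libraries labelled Bmal1-/-, and 5 of the 14 markers had a log2 fold change below 0, Aldh1l1 among them (-0.47) without overlap. By edgeR none of the 14 was called, and 2 were by DESeq2 (background 9.61%) or by edgeR without WT replicate 3 (background 4.66%).

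**Figure D3:**
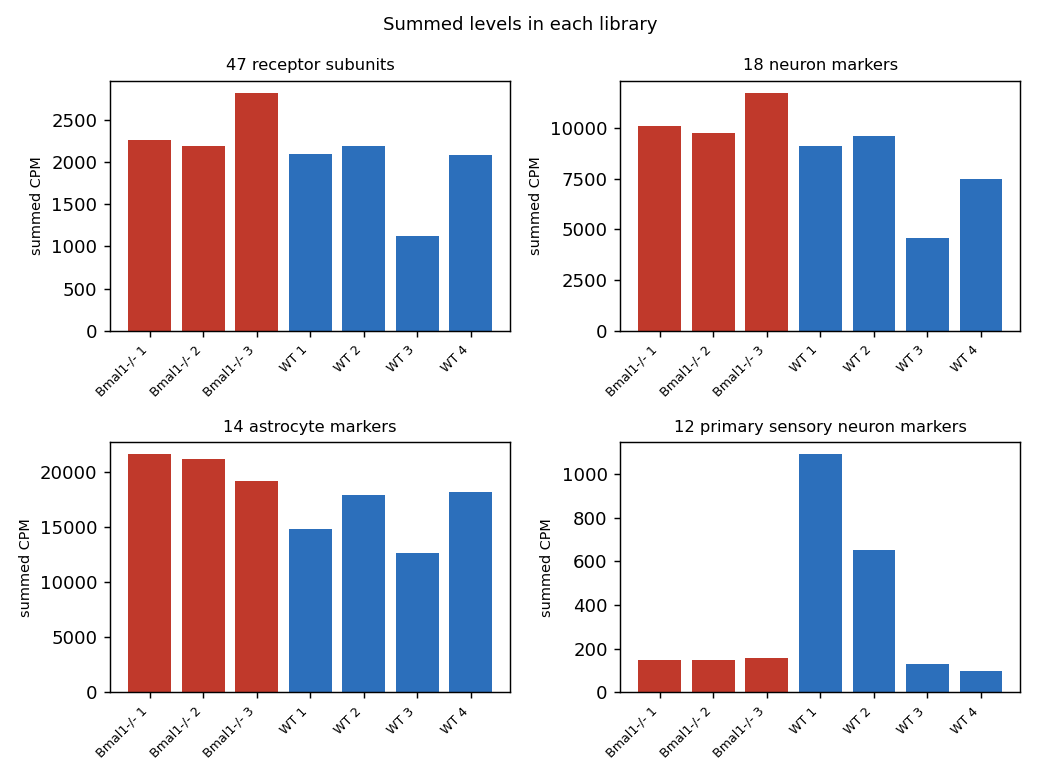
Summed CPM (y axes, from 0) in each library of the 47 receptor subunits, 18 neuron markers, 14 astrocyte markers and 12 primary sensory neuron markers; red bars are libraries labelled Bmal1-/- and blue bars WT. WT replicate 3 is lowest in subunits (1121 CPM) and neuron markers (4586 CPM), and WT replicates 1 and 2 hold 1092 and 650 CPM of sensory neuron markers.

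NMDA receptor subunits included the member with the largest positive fold change. Grin2c encodes GluN2C, a subunit known from cerebellar granule cells and astrocytes that gives channels with weak magnesium block. It had 23.9, 34.8 and 41.2 CPM in libraries labelled Bmal1-/- and 10.4, 14.4, 5.89 and 15.96 CPM in WT. All libraries labelled Bmal1-/- lay above all WT libraries, at means of 33.3 ± 8.71 (SD, n = 3) and 11.7 ± 4.50 (SD, n = 4). The log2 fold change was 1.52 (SE 0.34) with an edgeR adjusted p of 0.0797, and DESeq2 called it (1.52, adjusted p = 0.000523). Without WT replicate 3 it was 1.29 and edgeR called it (adjusted p = 0.0283). With any other single library left out, the edgeR adjusted p was 0.111 to 0.296. Without WT replicates 1 and 2 the log2 fold change was 1.61 (edgeR adjusted p = 0.137). The groups also did not overlap per 1000 CPM of neuron markers (2.37, 3.56 and 3.51 against 1.14, 1.496, 1.28 and 2.14 CPM) or of astrocyte markers (1.11, 1.64 and 2.15 against 0.702, 0.802, 0.466 and 0.877 CPM).

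Other NMDA subunits differed less. Grin1, the obligatory subunit and the NMDA member with the highest level per kb, had 177, 171 and 250 CPM in libraries labelled Bmal1-/- and 153, 149, 66.0 and 151 CPM in WT (log2 fold change 0.62, SE 0.30). Grin2b, which encodes the slow GluN2B subunit, stood at 29.6, 24.2 and 39.4 CPM against 21.2, 21.1, 8.66 and 22.2 CPM (0.76, SE 0.33). Grin2a, which encodes the faster GluN2A subunit, stood at 25.7, 25.8 and 34.1 CPM against 22.6, 24.7, 9.74 and 21.6 CPM (0.54, SE 0.30). In all 3 genes the groups did not overlap, yet the gap to the higher WT libraries was small and WT replicate 3 lay far below. Grin2d, Grin3a and Grin3b overlapped between genotypes, with log2 fold changes of 0.26, 0.07 and 0.25.

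The makeup of the GluN2 pool can be read within each library, as the share of summed CPM per kb. Grin2c made up 44.5, 57.4 and 52.4% of the 4 GluN2 transcripts in libraries labelled Bmal1-/- and 28.3, 35.9, 31.4 and 36.5% in WT, and the groups did not overlap. Grin2d, which encodes the slowest GluN2 subunit, made up 30.9, 22.6 and 25.3% against 42.7, 36.0, 44.7 and 39.3%. Grin2a made up 13.4, 11.96 and 12.2% against 17.3, 17.3, 14.6 and 13.9%, also without overlap, while the share of Grin2b overlapped. In these shares WT replicate 3 fell among the other WT libraries for Grin2c and Grin2a. Shares sum to 100%, so that a higher share of Grin2c lowers the rest. The size of a share also rests on the merged exon length, 5037 bases for Grin2c against 17933 for Grin2a and 24842 for Grin2b. Undivided by length, Grin2c had the lowest mean CPM of the 4 in WT (11.7 against 18.3 to 19.6). It had the highest in libraries labelled Bmal1-/- (33.3 against 22.1 to 31.1).

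**Figure D4:**
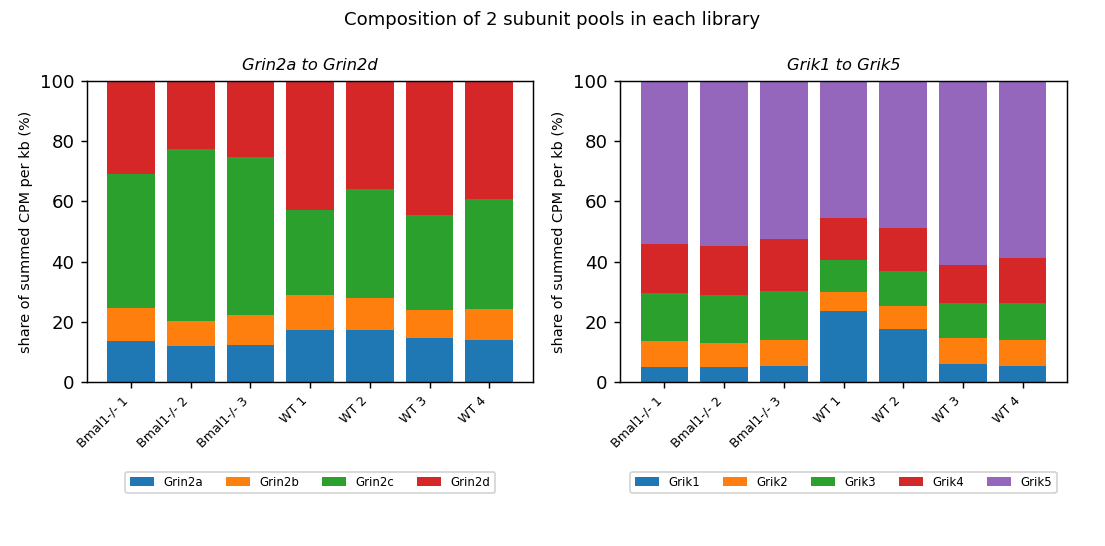
Share of summed CPM per kb (y axes, percent) of the GluN2 transcripts (left) and of the kainate receptor transcripts (right) in each library. Grin2c takes 44.5 to 57.4% in libraries labelled Bmal1-/- and 28.3 to 36.5% in WT; Grik3 takes 15.9 to 16.3% and 10.6 to 12.3%.

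Kainate receptors, which act before and after the synapse, held members at both ends. Grik3 encodes a subunit with low affinity for glutamate. It had 42.3, 39.6 and 47.2 CPM in libraries labelled Bmal1-/- and 32.9, 31.7, 20.6 and 29.9 CPM in WT, without overlap. The log2 fold change was 0.58 (SE 0.16) with an edgeR adjusted p of 0.129. DESeq2 called it (0.59, adjusted p = 0.0173), and so did edgeR without WT replicate 3 (0.45, adjusted p = 0.0281). With any other single library left out, the edgeR adjusted p was 0.147 to 0.412. Without WT replicates 1 and 2 the log2 fold change was 0.77 (edgeR adjusted p = 0.124). Grik3 made up 16.1, 15.9 and 16.3% of the kainate pool per kb in libraries labelled Bmal1-/- and 10.6, 11.8, 11.6 and 12.3% in WT. Per 1000 CPM of neuron markers its level overlapped between genotypes.

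Grik1 had the lowest log2 fold change of the 47 subunits. It encodes GluK1, a kainate receptor subunit abundant in sensory neurons of dorsal root ganglia. It had 9.99, 9.19 and 11.5 CPM in libraries labelled Bmal1-/- and 55.0, 35.6, 8.09 and 9.86 CPM in WT. The high values were those of WT replicates 1 and 2, the libraries with the high sensory neuron markers, while WT replicates 3 and 4 lay near or below the libraries labelled Bmal1-/-. The log2 fold change was -1.40 (SE 0.67, edgeR adjusted p = 0.272) with all libraries and 0.19 (adjusted p = 0.436) without WT replicates 1 and 2. The part of sensory neuron RNA in this difference was not tested.

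Among the remaining kainate members, Grik5, which encodes the high-affinity GluK5 subunit and had the highest level per kb of the class, had 82.1, 78.4 and 87.3 CPM in libraries labelled Bmal1-/- and 81.4, 75.8, 62.8 and 82.6 CPM in WT. Grik2, which encodes the main partner subunit GluK2, stood at 32.4, 29.8 and 37.0 CPM against 28.1, 29.2, 22.5 and 30.5 CPM, with a log2 fold change of 0.26 (SE 0.12). Both overlapped between genotypes, as did Grik4 in level. With Grik1 taken out of the pool, the share of Grik4 overlapped between genotypes, while the share of Grik3 ran from 16.7 to 17.2% in libraries labelled Bmal1-/- and from 12.3 to 14.4% in WT, without overlap.

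**Figure D5:**
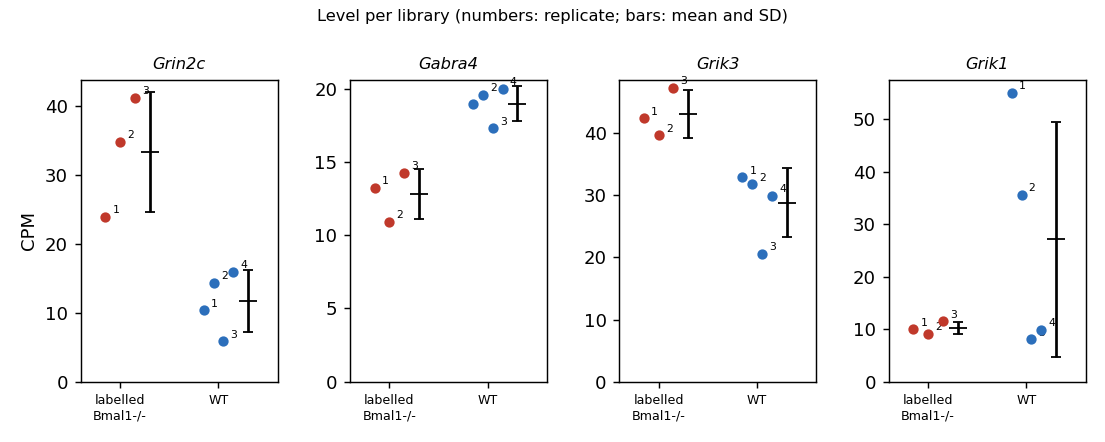
CPM (y axes, from 0) of Grin2c, Gabra4, Grik3 and Grik1 in each library, numbered by replicate, with mean and SD of each genotype. Grin2c and Grik3 lie above WT in all 3 libraries labelled Bmal1-/- and Gabra4 below, whereas in Grik1 only WT replicates 1 and 2 are high, at 55.0 and 35.6 CPM.

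AMPA receptor subunits were alike in their differences. Log2 fold changes ran from 0.33 to 0.44 over the 4 genes, none had an unadjusted p under 0.05 and all overlapped between genotypes. Gria1, which encodes GluA1, had the highest level per kb. It had 125, 105 and 146 CPM in libraries labelled Bmal1-/- and 102, 102, 52.0 and 115 CPM in WT. The share of each gene in the AMPA pool overlapped between genotypes, with Gria2, whose edited product keeps calcium out of the channel, at 15.8 to 17.0% against 15.7 to 17.8%.

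Delta receptors resemble ionotropic glutamate receptors in sequence and organise synapses through cerebellin proteins. Grid1 had 36.2, 34.9 and 46.8 CPM in libraries labelled Bmal1-/- and 30.6, 31.0, 14.6 and 29.4 CPM in WT, without overlap (log2 fold change 0.57, SE 0.26, edgeR adjusted p = 0.255).

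Metabotropic glutamate receptors of groups II and III dampen transmitter release. Grm4, an inhibitory presynaptic receptor with the highest level per kb of the class, had 35.2, 30.4 and 40.5 CPM in libraries labelled Bmal1-/- and 29.1, 33.6, 14.95 and 26.1 CPM in WT (log2 fold change 0.45, SE 0.25). Grm2, near the low end at 2.08, 1.95 and 2.41 CPM against 1.99, 1.23, 0.749 and 1.54 CPM, had a log2 fold change of 0.64 (SE 0.31). Both overlapped between genotypes, with WT replicate 3 the lowest library.

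In the GABA-A class, Gabra4 had the smallest p of all 47 subunits and the opposite sign to most. It encodes the alpha4 subunit, known from receptors outside synapses that often hold the delta subunit. It had 13.2, 10.9 and 14.3 CPM in libraries labelled Bmal1-/- and 19.0, 19.6, 17.3 and 19.997 CPM in WT. Here WT replicate 3 fell near the other WT libraries, and all libraries labelled Bmal1-/- lay below all WT libraries, at means of 12.8 ± 1.71 (SD, n = 3) and 19.0 ± 1.19 (SD, n = 4). The log2 fold change was -0.57 (SE 0.11, edgeR adjusted p = 0.0590). DESeq2 called it (-0.56, adjusted p = 0.00026), as did edgeR without WT replicate 3 (-0.61, adjusted p = 0.0276). With any other single library left out, the edgeR adjusted p was 0.105 to 0.214. Without WT replicates 1 and 2 the log2 fold change was -0.54 (edgeR adjusted p = 0.134). The groups did not overlap per 1000 CPM of neuron markers (1.31, 1.12 and 1.21 against 2.08, 2.04, 3.77 and 2.68 CPM), of astrocyte markers or of oligodendrocyte precursor markers (11.3, 9.09 and 13.2 against 18.8, 18.6, 17.6 and 18.3 CPM). Unscaled, Gabra4 already lay below WT, and neuron and astrocyte sums were higher in every library labelled Bmal1-/- than in any WT library. The precursor sums were 1083 to 1203 CPM against 985 to 1090 CPM. The ratios therefore add no separate evidence, and on the neuron scale 40.0% of all tested genes lay below WT. Among the GABA-A alpha transcripts, Gabra4 made up 5.67, 4.43 and 5.03% per kb against 9.53, 8.42, 15.7 and 9.49%.

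Gabra4 lies in a cluster of 4 GABA-A genes on chromosome 5, from 70751047 to 72149037 in GRCm38, and its neighbours did not share its sign. Log2 fold changes were 0.32 (SE 0.21) for Gabra2, 0.35 (SE 0.18) for Gabrb1 and 0.04 (SE 0.13) for Gabrg1. Gabrb1, which encodes a beta subunit, had 89.6, 83.7 and 97.6 CPM in libraries labelled Bmal1-/- and 76.6, 83.4, 47.9 and 76.3 CPM in WT, without overlap but with a gap to WT replicate 2 smaller than the spread within either group. Exons of Gabra4 and Gabrb1 overlap on opposite strands, but the genes overlap only from 71658113 to 71658308. The strand setting of the counting is not given in the sources used here, so how reads over this stretch were counted is not known. In the cluster on chromosome X, of Gabra3, Gabre and Gabrq, the log2 fold changes were 0.41 to 0.57.

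Higher values without overlap were found for 4 GABA-A subunits including Gabrb1. Gabra3, the member of the class with the highest level per kb, had 63.3, 70.8 and 85.2 CPM in libraries labelled Bmal1-/- and 53.7, 59.4, 24.7 and 58.7 CPM in WT (log2 fold change 0.57, SE 0.29). Gabra5, known from receptors of tonic inhibition, stood at 23.3, 22.8 and 31.4 CPM against 19.9, 21.3, 8.54 and 19.0 CPM (0.59, SE 0.30). Gabrb2, which encodes a beta subunit common in adult brain receptors, stood at 8.11, 7.91 and 12.4 CPM against 6.25, 6.71, 1.57 and 5.42 CPM (0.92, SE 0.44). In all 3, WT replicate 3 was at less than the other libraries by a wide margin, and none passed the test. The 2 rarest members of the class, Gabrd and Gabrr2, were at or under 0.939 CPM in every library and overlapped.

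GABA-B receptors work as a pair of both subunits. Gabbr1 had the highest level per kb of all 47 subunits, at 51.3 CPM per kb in libraries labelled Bmal1-/- and 46.6 CPM per kb in WT. It had 375, 384 and 435 CPM against 372, 423, 235 and 417 CPM, with a log2 fold change of 0.14 (SE 0.20) that was -0.02 without WT replicate 3. Gabbr2, the G protein-coupling partner, had a log2 fold change of 0.51 (SE 0.44) and overlapped too.

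Glycine receptor subunits had the highest class median together with NMDA subunits. Glra2, which encodes the alpha subunit of immature spinal cord, had 7.85, 7.38 and 11.01 CPM in libraries labelled Bmal1-/- and 5.48, 6.22, 2.40 and 4.99 CPM in WT, without overlap (log2 fold change 0.87, SE 0.31, edgeR adjusted p = 0.192). Glra1, the alpha subunit of adult spinal cord, stood at 23.2, 17.7 and 35.5 CPM against 14.5, 17.0, 2.70 and 15.9 CPM, also without overlap (1.02, SE 0.55). The gap in Glra1 between the lowest library labelled Bmal1-/- and the highest WT library was small beside the spread within both groups. Glrb, which encodes the beta subunit that anchors the receptor to gephyrin, had 153, 165 and 200.3 CPM against 131, 155, 68.9 and 119 CPM, with overlap (0.54, SE 0.25). Its level per kb was the highest of the class, at 37.1 and 25.5 CPM per kb. Among the alpha transcripts, Glra3 took 8.36, 8.94 and 7.74% per kb in libraries labelled Bmal1-/- and 11.97, 9.53, 18.6 and 10.6% in WT, without overlap.

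Expressed per 1000 CPM of summed neuron markers, 8 of 47 subunits did not overlap between genotypes (40.8% of all tested genes). Above WT were Grin2c, Gabrb2 and Glra2, 3 of 47 where 0.737% of all tested genes were above. Below WT were Grik1, Grin3a, Gabra4, Gabrg1 and Gabbr1, 5 of 47 where 40.0% of all tested genes were below. Summed neuron markers were higher in every library labelled Bmal1-/- than in any WT library, which lowers this ratio for genes that do not follow them. The shares over all genes therefore do not show what a list of neuronal genes would give, and neither count is read as an excess or a lack. Gabrb2 stood at 0.802, 0.810 and 1.05 CPM per 1000 CPM of neuron markers against 0.685, 0.699, 0.343 and 0.726. Glra2 stood at 0.777, 0.755 and 0.938 against 0.602, 0.648, 0.523 and 0.668. On this scale WT replicate 3 was still the lowest library for Gabrb2 and Glra2, but not for Grin2c.

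The sequence ahead of the start of the 3 subunits that DESeq2 called is shown because these are the members with the smallest p. RefSeq promoter windows (250 bases before to 50 after the start, GRCm38.p6) were matched for 31 of 47 subunits by symbol. The 3 motifs bound by clock factors were searched on both strands, namely the E-box CACGTG, bound by BMAL1 with CLOCK, the D-box TTATGNAA and the half-site AGGTCA of REV-ERB and ROR factors. The E-box was in 1 of 31 windows (Grin1) and in 8.09% of all 27025 windows. The D-box was in 2 of 31 (Gabrr2 and Glra3) and in 3.99% of all, and the half-site in 2 of 31 (Grin2c and Grm8) and in 18.1% of all. The 250 bases upstream of Grin2c (chr11:115267244-115267493, minus strand), Gabra4 (chr5:71658309-71658558, minus strand) and Grik3 (chr4:125490446-125490695, plus strand) read as follows, 5′ to 3′, with the half-site in capitals. A match is only a match of letters, and its absence says nothing of a factor.
Grin2c: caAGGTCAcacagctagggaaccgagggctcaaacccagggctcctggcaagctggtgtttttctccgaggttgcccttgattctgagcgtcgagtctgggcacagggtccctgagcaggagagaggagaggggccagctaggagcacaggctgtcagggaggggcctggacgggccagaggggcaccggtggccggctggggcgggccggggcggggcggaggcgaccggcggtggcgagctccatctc
Gabra4: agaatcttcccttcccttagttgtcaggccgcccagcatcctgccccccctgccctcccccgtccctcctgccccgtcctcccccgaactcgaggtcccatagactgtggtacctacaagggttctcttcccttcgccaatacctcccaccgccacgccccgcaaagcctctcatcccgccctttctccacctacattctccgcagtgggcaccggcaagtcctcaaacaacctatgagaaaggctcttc
Grik3: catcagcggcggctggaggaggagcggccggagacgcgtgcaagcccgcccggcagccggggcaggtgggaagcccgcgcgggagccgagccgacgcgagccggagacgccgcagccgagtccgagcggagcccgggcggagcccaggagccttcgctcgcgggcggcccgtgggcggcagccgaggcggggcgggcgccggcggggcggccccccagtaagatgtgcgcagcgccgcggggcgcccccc
The half-site of Grin2c starts 248 bases before the start of transcription, and the windows of Gabra4 and Grik3 held none of the 3 motifs. G and C made up 68.8, 61.2 and 82% of these stretches.

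Some properties of the genes that the choice of members did not use can affect counts. The median exon length was 6360 bases for the 47 subunits and 4358 bases for all tested genes, and the median GC content of exons was 47.2% and 49.9%. With a trend of GC content and length removed from each library, 43 of 47 log2 fold changes were above 0 and 0 were called. An exon overlapped another annotated gene in 19 of 47 subunits, in 13 of them on the opposite strand, among them Grin1, Grin2b, Grin2c, Gabra4 and Glra1. Of the 47 subunits, Grm5 was the nearest to Arntl on chromosome 7, at a distance of 25.1 Mb.

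The other genes of these synapses were read from 3 lists, and edgeR called none of their genes. DESeq2 called 5 of 24 genes of the transmitter list, 1 of 33 auxiliary genes and 1 of 29 scaffold genes (background 9.61%). Without WT replicate 3, edgeR called 4, 1 and 2 of them (background 4.66%). Of 24 genes of transmitter synthesis, vesicular loading and uptake, 17 had a log2 fold change above 0 (median 0.34, and 0.21 without WT replicate 3). Gad1, a glutamate decarboxylase that makes GABA, had 119, 125 and 169 CPM in libraries labelled Bmal1-/- and 87.0, 95.9, 42.8 and 84.5 CPM in WT (log2 fold change 0.83, SE 0.27, edgeR adjusted p = 0.168). Aldh5a1, an enzyme of GABA degradation, had the smallest p of the list, at 154, 155 and 201 CPM against 87.3, 90.7, 48.9 and 83.3 CPM (1.13, SE 0.22, edgeR adjusted p = 0.0571). The groups did not overlap in either gene, and for Aldh5a1 the lowest library labelled Bmal1-/- was far above the highest WT library. Slc6a5, the glycine transporter of glycinergic neurons, stood at 208, 231 and 301 CPM against 140, 199, 49.9 and 139 CPM (0.90, SE 0.40). Slc1a3, a glutamate transporter of astrocytes, had the opposite sign (-0.44, SE 0.15), with WT replicate 3 overlapping the libraries labelled Bmal1-/-, whereas Slc1a2, the main glutamate transporter, stood at 0.53 (SE 0.23).

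Of 33 auxiliary subunits and chaperones of the receptors, 23 had a log2 fold change above 0 (median 0.19, and 0.06 without WT replicate 3). Cacng2, which encodes the AMPA receptor partner stargazin, had 0.70 (SE 0.32), and Neto2, an auxiliary subunit of kainate receptors, had -0.28 (SE 0.10) without overlap. Of 29 postsynaptic scaffold genes tested, 24 were above 0 (median 0.33, and 0.13 without WT replicate 3). Dlg4, which encodes PSD-95 and is also among the neuron markers, had 192, 181 and 223 CPM in libraries labelled Bmal1-/- and 182, 171, 103 and 173 CPM in WT. Gphn, which encodes gephyrin, stood at 51.5, 54.5 and 65.5 CPM against 55.6, 55.5, 37.0 and 53.9 CPM. Homer2, which links group I metabotropic receptors to calcium stores, had -0.82 (SE 0.26), with WT replicate 3 within the range of the libraries labelled Bmal1-/-.

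Markers of other cells were counted in the same libraries. By edgeR, 7 of 9 skeletal muscle, 1 of 10 endothelial, 1 of 6 Schwann cell and 1 of 5 red cell markers were called lower in libraries labelled Bmal1-/-, where 0.915% of all tested genes were. In either direction, DESeq2 called 8, 3, 4 and 5 of these (background 9.61%). By edgeR, 8, 3, 2 and 5 were called without WT replicate 3 (background 4.66%), and 1, 0, 0 and 0 without WT replicates 1 and 2 (background 0.260%). Of 6 motor neuron, 11 oligodendrocyte, 9 oligodendrocyte precursor, 8 pericyte and 9 fibroblast markers, edgeR called none. DESeq2 called 1, 1, 1, 3 and 1 of them (background 9.61%). Without WT replicate 3, edgeR called 2 of the 9 oligodendrocyte precursor markers (background 4.66%). Microglia and macrophage and ependymal markers had no call by either tool. Summed red cell markers were at 451 CPM in WT replicate 3, at 149 to 166 CPM in the other WT libraries and at 26.1 to 60.0 CPM in those labelled Bmal1-/-, and summed microglia and macrophage markers were at 6258 CPM in WT replicate 3, at 3545 to 4794 CPM in the other WT libraries and at 3650 to 4787 CPM in those labelled Bmal1-/-. The part of these cells in the levels of the receptor subunits was not tested.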

How the data were processed

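RNASeq was done on the dpi 3 contusion epicenter, in 3 libraries under the Bmal1-/- label and 4 WT libraries. Per the labels and the study's methods, the authors used a stranded poly-A kit, aligned reads to GRCm38 with Tophat2 and deposited raw counts per gene from HTSeq 0.10.0, after FastQC 0.10.1 per the submitters' processing notes. The annotation release and strand setting are not given in the sources used here. From these counts, edgeR 4.0.16 (R 4.3.3, limma 3.58.1) was run with filterByExpr, TMM and the quasi-likelihood test on genotype over 15743 genes, with Benjamini-Hochberg adjustment over all of them and a threshold of 0.05. SE is the size of the log2 fold change divided by the square root of the F statistic. P-values measure the spread between these mice. Totals of 38529644 to 44096737 counts leave the spread between mice as the main error of all but the rarest genes, and the limit of 3 counts covers counting error only. Gene positions and exon lengths came from GENCODE M21 and matched 21939 of 21965 genes. Alternatives were DESeq2 1.42.0, limma-voom, RLE and upper-quartile scaling, other count filters, sex as a covariate, a replicate block, removal of a GC and length trend, and each library left out. The edgeR, DESeq2, voom and GC fits were tested on simulated data (200 genes changed). Python 3.11.15 with matplotlib 3.10.9 drew the plots.

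The members, the gene lists and the tests were chosen with earlier results of these data known. The 12 sensory neuron markers, the clock genes named, the kainate pool without Grik1 and the fit without WT replicates 1 and 2 were chosen after seeing these counts. Subunits given with the value in every library were the 12 with the smallest p, the one with the highest CPM per kb in each class and those whose groups did not overlap, and 5 subunits are counted but not reported here singly. Genes named from the other lists were chosen after their values were seen. A few genes stand in more than 1 list (Dlg4, Prph, Slc1a2, Slc1a3, Pdgfra, Cspg4 and Slc6a13). One scaffold gene of the list, Insyn2a, was not used here, and proteins were not analysed here.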

Additional observations from a re-analysis of the deposited data

Results flagged for a closer look

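In a group of 4 libraries, a value whose gap to its nearest neighbour, as a share of the range of the group, passes the 95% critical value of Dixon's test was singled out, which chance gives in about 1 of 20 groups. The libraries labelled Bmal1-/-, 3 in number, were too few for this. In every case singled out, the library was WT replicate 3, so the values are not separate observations. Single subunits singled out there were 8 of 47: Gria4 at 53.2 CPM, Grid1 at 14.6, Grin1 at 66.0, Grin2b at 8.66, Grm3 at 3.77, Gabra3 at 24.7, Gabrg1 at 26.1 and Glra3 at 4.12 CPM, each the lowest of the WT libraries. Summed levels singled out as lowest were those of all subunits at 1121 CPM, AMPA at 203, delta at 28.4, NMDA at 127, metabotropic glutamate at 59.6, GABA-B at 256, all glutamate receptors at 547 and postsynaptic scaffold genes at 1467 CPM. Per 1000 CPM of neuron markers, Gabrb2 was also lowest there, at 0.343 CPM. Highest there were the summed endothelial markers at 932 CPM, the summed red cell markers at 451 CPM and the share of Gabra4 among the GABA-A alpha transcripts at 15.7%.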

How the results depend on the processing

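The number of receptor subunits called was 0 lower and 0 higher under every edgeR and limma-voom alternative with all libraries; DESeq2 called 1 lower and 2 higher (Gabra4, then Grin2c and Grik3). With each library left out, 0 to 1 were called lower and 0 to 2 higher, both upper ends being the fit without WT replicate 3. Log2 fold changes were above 0 in 41 to 46 of 47 subunits over all alternatives. The subunits whose groups did not overlap numbered 14 to 26 with each library left out, 26 being without Bmal1-/- replicate 2. They numbered 27 without WT replicates 1 and 2. Fewer libraries overlap less often, and the shares over all tested genes were not counted for these reduced sets. The counts are therefore not read as a result. Over all genes, 144 were called lower and 103 higher, against 914 and 599 by DESeq2, 27 to 439 lower and 30 to 291 higher with each library left out (439 and 291 without WT replicate 3), and 15 and 26 without WT replicates 1 and 2. Deviations of same-numbered libraries from their group means correlated over genes at -0.22, 0.15 and -0.40. Differently numbered libraries were not compared, so these values do not settle whether replicate numbers pair the mice. With the replicate number as a block, 0 genes were called lower and 0 higher, and the Arntl log2 fold change was 0.77 (adjusted p = 0.233). Arntl stayed above 0 throughout, at 0.71 to 0.82 with each library left out, where 4 of the 7 fits lost the call, and at 0.90 (adjusted p = 0.0618) without WT replicates 1 and 2. Signs turned for Grik1 (0.19) without WT replicates 1 and 2 and for Gabbr1 (-0.021), Grin3a (-0.11) and Gabrg1 (-0.06) without WT replicate 3; the highest Gabbr1 value with a library left out was 0.22. Grin3a and Gabrg1 also turned without Bmal1-/- replicate 3 and with the GC and length trend removed, Gabrg1 without Bmal1-/- replicate 1, and Gabrd and Gabrr2 without Bmal1-/- replicate 3. The cause of these moves was not tested.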

Other observations

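Some proportions were shared by all 7 libraries, whatever the genotype label. Per kb of exon, Gria1 took 34.9 to 40.8% of the AMPA transcripts, Gria4 31.2 to 34.5% and Gria2 15.7 to 17.8%. This order rests on the merged exon length, 15548 bases for Gria2 against 6043 for Gria1 and 6305 for Gria4. Undivided by length, Gria2 had the highest mean CPM of the AMPA subunits, at 137 in libraries labelled Bmal1-/- and 106 in WT. Among the GABA-A alpha transcripts, Gabra3 was first in every library at 34.8 to 46.6%. Glra1 took 46.5 to 73.4% of the glycine alpha transcripts. Gabrg1, which glial cells are known to carry, took 24.7 to 49.1% of the gamma transcripts. WT replicate 3 held the lowest share of Glra1, Gabra3 and Gria1 and the highest share of Gabrg1 and Gabra4.

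Primary sensory neuron markers ranged over a wide span within WT. Calca, which encodes the neuropeptide CGRP, stood at 174, 117, 40.6 and 25.1 CPM in WT replicates 1 to 4 and at 59.2, 54.5 and 56.5 CPM in libraries labelled Bmal1-/-. WT replicates 1 and 2 were the female WT libraries, and the female libraries labelled Bmal1-/- had no count of Scn10a. None of the 12 markers was called by edgeR with all libraries (9 had an unadjusted p under 0.05, background 20.9%), and DESeq2 called 8 (background 9.61%).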
